A study of Mus musculus with 2 samples.

Results

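The interferon-stimulated genes described here are 41 genes whose transcription is known to be raised by interferons, and they were found by symbol among the 43346 annotated genes measured in CH12.LX. All 41 had a row in both gene tables. CH12.LX is an established mouse B-cell lymphoma line from a female of strain B10.H-2aH-4bp/Wts, which the labels name as an analog of the human line GM12878. RNA longer than 200 nt from 2 biosamples was sequenced, giving biological replicates 1 and 2 with 24469094 and 23586580 expected counts. Both libraries belong to 1 group. The labels give no treatment, interferon exposure or second condition, so the levels below are those of the cells as grown, and a single line cannot stand for B cells in general.

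Interferons are secreted proteins that cells make on sensing viral nucleic acid. Type I interferons act through the receptor Ifnar1-Ifnar2, the kinases Jak1 and Tyk2 and a factor holding Stat2 and Irf9, which binds the interferon-stimulated response element (ISRE). Interferon gamma acts through Ifngr1-Ifngr2 and the gamma-activated site (GAS), and the target genes encode sensors, antiviral enzymes, membrane-remodelling GTPases and ubiquitin-like modifiers.

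The promoters are shown first because these elements are the feature the genes are known to share. RefSeq promoter windows on GRCm38.p6, from 250 bases before to 50 bases after each start, held 30 of the 41 genes. The ISRE core was searched as GAAA, any 2 bases, then GAAA, on both strands, overlapping matches included. It was present in 14 of the 30 genes (46.7%), against 3.99% of the 27025 genes of the table. The GAS was searched as TTC, any 3 bases, then GAA, which reads the same on both strands, and was present in 8 of 30 (26.7%) against 9.55% of all genes. Both searches describe letters in a window and show no binding. The stretches below surround the ISRE matches of the 4 highest and the 4 lowest genes by mean level among the 12 with a match before the start, and of Isg15, which gives its name to the ISG15 system. They are written 5′ to 3′ along the transcribed strand, and capitals mark ISRE cores in either orientation.
Bst2: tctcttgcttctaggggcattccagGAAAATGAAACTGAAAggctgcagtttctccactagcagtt
Igtp: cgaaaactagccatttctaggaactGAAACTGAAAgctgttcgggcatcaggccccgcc
Gbp3: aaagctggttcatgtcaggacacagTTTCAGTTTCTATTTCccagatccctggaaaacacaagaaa
Irgm1: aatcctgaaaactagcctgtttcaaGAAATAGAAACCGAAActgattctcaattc
Isg15: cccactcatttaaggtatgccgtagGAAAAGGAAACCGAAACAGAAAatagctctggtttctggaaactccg
Ifit1: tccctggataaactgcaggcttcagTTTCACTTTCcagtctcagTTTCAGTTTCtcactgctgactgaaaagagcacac
Ifit3: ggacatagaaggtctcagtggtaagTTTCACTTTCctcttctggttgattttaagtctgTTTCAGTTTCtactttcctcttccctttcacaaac
Rsad2: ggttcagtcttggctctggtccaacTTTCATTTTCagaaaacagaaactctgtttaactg
Oas3: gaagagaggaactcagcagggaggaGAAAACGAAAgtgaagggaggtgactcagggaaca
The stretches lie at chr8:71537562-71537627 (minus strand) for Bst2, chr11:58199497-58199555 (plus strand) for Igtp, chr3:142559974-142560039 (plus strand) for Gbp3, chr11:48871421-48871475 (minus strand) for Irgm1, chr4:156200850-156200921 (minus strand) for Isg15, chr19:34640760-34640838 (plus strand) for Ifit1, chr19:34583348-34583441 (plus strand) for Ifit3, chr12:26456538-26456597 (minus strand) for Rsad2 and chr5:120777700-120777759 (minus strand) for Oas3. In Isg15, 3 cores overlap in 1 run that ends 57 bases before the start. Bst2 and Irgm1 carry 2 overlapping cores each, as does Gbp3 on the opposite strand, while the 2 cores of Ifit1 and of Ifit3 are separate. Matches to the searched pattern thus stand before Bst2, at 209 ± 7.31 TPM, and before Oas3, at 0.01 TPM in each replicate. With a flanking C also required, Bst2 kept 1 match, and Igtp, Rsad2 and Oas3 had 0. Gbp3, Irgm1, Isg15, Ifit1 and Ifit3 had 2 each.

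Of the 41 genes, 31 (75.6%) reached 1 TPM in both replicates, the level called expressed here, and 10 did not. TPM is transcript abundance per length, with an equal total in every library, so levels of different genes can be compared on it. The same level was reached by 25.4% of all genes and by 45.9% of protein-coding genes. The median over the 41 genes was 4.29 TPM, beside 0.41 TPM over protein-coding genes and 0 over all genes. Means are given ± SD over the 2 replicates (n = 2) throughout. Levels spanned from 0 counts to more than 200 TPM: 3 genes stood at 100 TPM or more, 12 between 10 and 100, 16 between 1 and 10, 5 between 0.1 and 1, and 5 below 0.1. The 10 highest held 82.3% of the summed level of the 41, which was 1005.76 TPM in replicate 1 and 1040.55 TPM in replicate 2. By role, the sensing, OAS, IFIT and Mx genes all lay below 10 TPM, the 4 guanylate-binding and immunity-related GTPases all above it, and the other groups held genes on both sides. With the deposited posterior means in place of TPM, none of the 41 stood below 0.1 TPM.

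**Figure D1:**
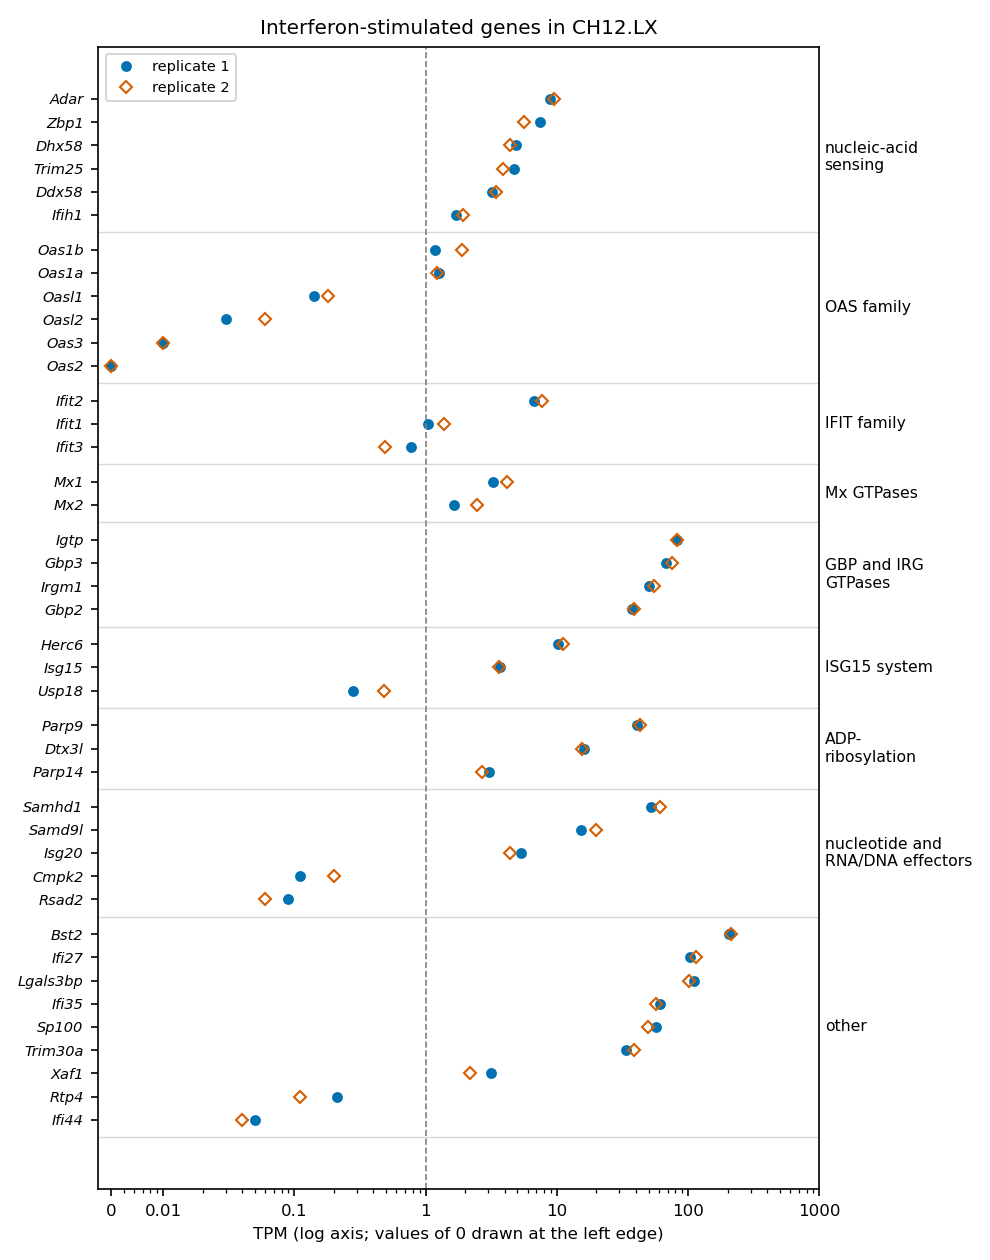
Levels of the 41 interferon-stimulated genes in TPM on a log axis, grouped by role, with filled circles for replicate 1, open diamonds for replicate 2 and the dashed line at 1 TPM. The 4 guanylate-binding and immunity-related GTPases sit between 37.19 and 82.52 TPM, and 4 of the 6 OAS genes lie left of the line in both replicates.

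All 6 sensing genes were expressed, at low levels with a median of 4.47 TPM. Adar, which deaminates adenosine in double-stranded RNA, was the highest of them, at 8.87 and 9.44 TPM. Zbp1, a sensor of Z-form nucleic acid that triggers necroptosis, had 7.5 TPM in replicate 1 and 5.59 TPM in replicate 2, from 121 and 96 counts. The RNA helicases formed a graded series. Dhx58, the helicase LGP2, was at 4.92 and 4.38 TPM, Ddx58, the helicase RIG-I, at 3.22 and 3.44 TPM, and Ifih1, the helicase MDA5, at 1.71 and 1.94 TPM. The replicate values of these 3 helicases did not overlap. Trim25, the ubiquitin ligase that acts with RIG-I, was at 4.72 and 3.86 TPM, and its range overlapped that of Dhx58.

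Adar makes a long protein, p150, known to come from an interferon-inducible promoter, and a shorter constitutive protein, p110. Transcripts coding for 1100 or more residues held 48.5% of the coding-transcript TPM of Adar in replicate 1 and 51.4% in replicate 2, a mean of 49.9% ± 2.05. The leading one, Adar-203, codes for 1178 residues and was at 3.73 and 4.11 TPM. Adar-202 codes for 930 residues and was at 3 and 2.83 TPM. Adar-205, which codes for 634 residues and has the same annotated start as Adar-203, was at 1.15 and 1.06 TPM. The long transcripts and all shorter coding ones together thus each held near an equal share. The shorter share is not that of p110 alone. The share of the long transcripts was 54.3% when expected counts were used in place of TPM. The deposited posterior SD of the Adar-203 count was 59.0 and 68.35 around 440.86 and 465.58 counts, so the division between forms is less certain than the total for the gene.

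The OAS family, which makes the second messenger 2-5A on binding double-stranded RNA, was the lowest group, with 2 of 6 genes expressed. Oas1b, annotated as a polymorphic pseudogene, was at 1.17 and 1.88 TPM, from 35 and 38 counts. Oas1a was at 1.27 and 1.23 TPM, from 44.29 and 40.97 counts that the quantification partly shared with near-identical copies. The replicate ranges of these 2 genes overlapped. Oasl1 and Oasl2, OAS-like genes, each had 1 count in replicate 1 and 2 counts in replicate 2. Oas3 had 1 count in each library, for which the exact Poisson 95% interval is 0.0253 to 5.57 counts, and Oas2 had 0. For a count of 0 a set limit of 3 counts was used, which for Oas2 is 0.0566 TPM in replicate 1 and 0.0590 TPM in replicate 2. The exact Poisson 95% interval of a count of 0 reaches further, to 3.69 counts. Such floors and intervals take in counting error alone. No source names molecular identifiers, so copies of 1 molecule may have been counted more than once.

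Oas1b, Oas1a, Oas2 and Oas3 all lie on chromosome 5 between 120730333 and 120907521 (GRCm38), with Oas2 and Oas3 at the lower coordinates and the expressed Oas1b and Oas1a at the higher. Of the 6 further OAS genes in that family, only Oas1c reached 1 TPM in both replicates. Oas1c was at 2.76 and 2.72 TPM, which is 2.19 ± 0.0270 times Oas1a and above every OAS gene among the 41.

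**Figure D2:**
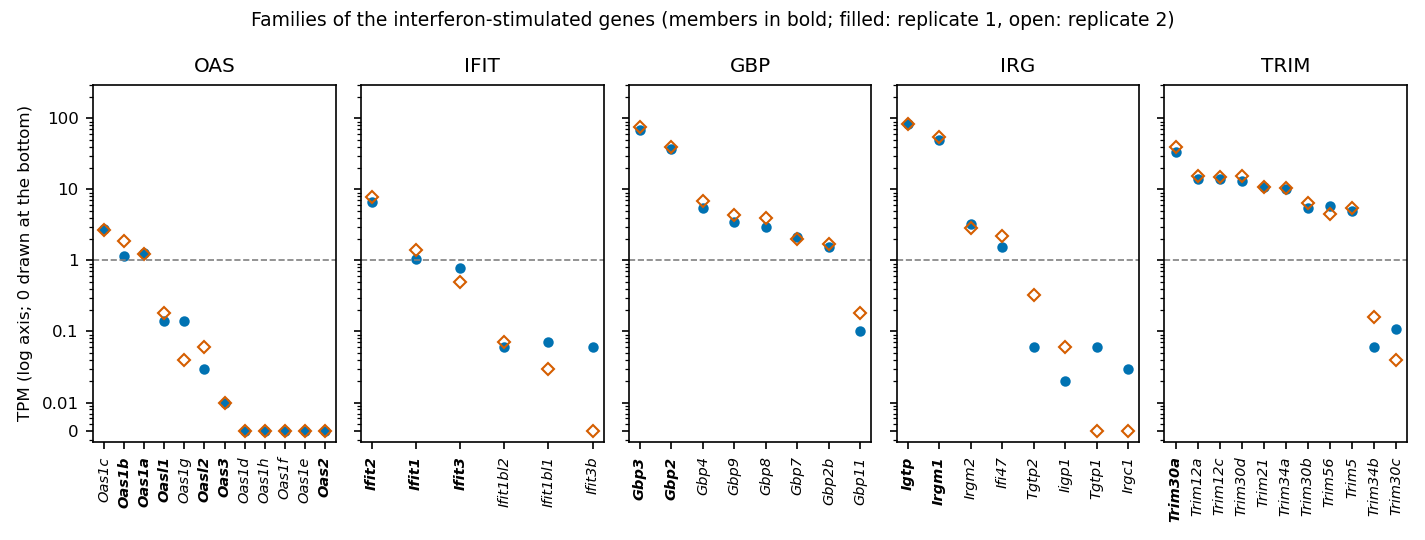
Levels in TPM on a log axis of whole gene families, with members of the 41 in bold, filled circles for replicate 1, open diamonds for replicate 2 and the dashed line at 1 TPM. Gbp3 and Gbp2 lead the guanylate-binding family, Igtp and Irgm1 lead the immunity-related GTPases, and Oas1c leads the OAS family.

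The IFIT genes, which encode proteins that bind viral RNA ends, differed from each other. Ifit2 was at 6.72 and 7.70 TPM. Ifit1 was at 1.04 and 1.39 TPM, and Ifit2 exceeded it 6.00 ± 0.652 times. That ratio takes in Ifit2-202, which codes for 43 residues and was at 3.01 and 2.29 TPM from 30.04 and 21.97 counts. Ifit2-201, which codes for 470 residues, was at 3.71 and 5.41 TPM. Ifit3 had 24.68 and 15 counts, giving 0.78 and 0.49 TPM, and missed the level called expressed. The 3 genes lie together on chromosome 19 from 34550694 to 34650009, and their replicate ranges did not overlap. None of 3 further IFIT genes reached 1 TPM.

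The Mx GTPases block virus replication, and many laboratory strains carry defective copies. Mx1 was at 3.29 and 4.14 TPM, and 67.8% and 72% of this was on transcripts annotated as targets of nonsense-mediated decay. The leading one was Mx1-205, with 53.6% ± 4.46 of the gene's TPM. Mx2 was at 1.66 and 2.48 TPM, all of it on transcripts annotated as polymorphic pseudogene or non-coding. The RNA of the Mx pair was thus mostly on transcripts that the reference annotation does not class as protein-coding, and sequence differences between this line's strain and the reference were not analysed here.

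The 4 GTPases known for strong control by interferon gamma were all expressed, and their median of 62.1 TPM was the highest of the groups. Igtp, also called Irgm3, was at 82.08 and 82.52 TPM. Irgm1, which acts in autophagy of intracellular pathogens, was at 50.02 and 55.09 TPM. Gbp3 was at 68.26 and 75.18 TPM and Gbp2, which attacks pathogen membranes, at 37.19 and 39.00 TPM. The order Igtp, Gbp3, Irgm1, Gbp2 held in both replicates without overlap.

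High levels were not shared by the relatives of these GTPases. Of the 6 further guanylate-binding genes measured, 5 were expressed, but the highest, Gbp4, was at 5.48 and 6.97 TPM. Gbp3 exceeded Gbp2 by 1.88 ± 0.0652 times, and Gbp2 exceeded Gbp2b, also called Gbp1, by 23.5 ± 1.15 times. Of 6 further immunity-related GTPases, Irgm2 and Ifi47 were expressed. Irgm2 was at 3.31 and 2.90 TPM, and Igtp exceeded it 26.6 ± 2.59 times. The annotated spans of Igtp and Irgm2 share 7974 bases on the same strand, so how reads were divided between them bears on that ratio.

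In the ISG15 system, which attaches the ubiquitin-like protein Isg15 to other proteins, levels varied by step. Isg15 itself was at 3.68 and 3.64 TPM, from 41 and 39 counts. Herc6, the ligase of this system in mice, was at 10.30 and 11.14 TPM, 2.93 ± 0.185 times Isg15. Uba7, the activating enzyme, was at 20.10 and 19.24 TPM, and Ube2l6, the conjugating enzyme, at 6.51 and 5.55 TPM. The 3 conjugation enzymes all stood above the modifier, with no overlap. Usp18, which removes Isg15 and restrains the type I receptor, had 9 and 15 counts, or 0.28 and 0.48 TPM.

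The ADP-ribosylation genes form 1 stretch on chromosome 16, from 35832874 to 35972605, and all 3 were expressed. Parp9 was at 40.77 and 43.40 TPM. Dtx3l, the ubiquitin ligase that pairs with Parp9, was at 16.22 and 15.56 TPM, so Parp9 exceeded it 2.65 ± 0.195 times. Parp14, a mono-ADP-ribosyltransferase, was at 3.03 and 2.69 TPM, and Dtx3l exceeded it 5.57 ± 0.305 times. The order Parp9, Dtx3l, Parp14 held in both replicates without overlap. Parp9 and Dtx3l lie on opposite strands and their spans share 682 bases. Whether the counting used strand is not given in the sources used here.

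Of the 5 effectors that act on nucleotides and nucleic acids, 3 were expressed. Samhd1, which hydrolyses deoxynucleotides, was at 52.31 and 60.91 TPM. Of this, 48.3% and 54.2% was on transcripts outside the protein-coding class, chiefly with retained introns. Samd9l, a growth-restraining antiviral factor, was at 15.35 and 19.98 TPM, and Isg20, a 3′ exonuclease, at 5.38 and 4.41 TPM. Cmpk2, a mitochondrial nucleotide kinase, and Rsad2, known as viperin, were far lower. Cmpk2 had 7 and 12 counts (0.11 and 0.20 TPM) and Rsad2 7 and 4 counts (0.09 and 0.06 TPM). These 2 genes are neighbours on chromosome 12, between 26442746 and 26479837. Cmpk2 was above Rsad2 in each replicate, with a ratio of 2.28 ± 1.49. With the deposited posterior means Rsad2, at 0.325 TPM, stood above Cmpk2, at 0.165 TPM, so their order is not set.

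The remaining 9 genes included the 3 highest levels. Bst2, or tetherin, which holds budding virus on the cell surface, was at 203.60 and 213.94 TPM and ranked 687 of all genes, the only one of the 41 among the 1000 highest. Ifi27, a small mitochondrial protein, was at 103.55 and 114.19 TPM, and its relative Ifi27l2a was at 201.33 and 220.98 TPM. Lgals3bp, a secreted glycoprotein, was at 111.76 and 102.14 TPM. Of this, 60.42 and 56.26 TPM were on Lgals3bp-201, which codes for 577 residues. Lgals3bp-205, which codes for 138 residues, held 51.34 and 45.62 TPM. The ranges of Ifi27 and Lgals3bp overlapped, so their order is not set, while Bst2 exceeded both in each library. Bst2 exceeded Isg15 by 57.1 ± 2.44 times.

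Below them in the same group, Ifi35, which partners Nmi, was at 60.80 and 57.17 TPM. Sp100, a component of PML nuclear bodies, was at 56.96 and 49.30 TPM. Trim30a, a restraint on inflammatory signalling, was at 33.58 and 39.02 TPM, and led its cluster of TRIM genes, of which 8 of 10 others were expressed. Sp100 and Trim30a had counts that were not whole, a sign of reads shared with related genes. Xaf1, a pro-apoptotic factor, was much lower, at 3.13 and 2.17 TPM. Rtp4, a receptor chaperone, had 6 and 3 counts, and Ifi44 had 3 and 2. The group therefore held both the highest gene and 1 of the 5 genes below 0.1 TPM.

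Among neighbours in the order of all 41 mean levels, 20 of 40 pairs had replicate values that overlapped. Ifi35, Samhd1, Sp100 and Irgm1 followed each other in that order, each overlapping the next, and so did Gbp2 and Trim30a. The gap from Bst2 to Ifi27 and the gap from Trim30a to Samd9l were free of overlap.

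The promoter motif did not sort the genes by level. The 14 genes with an ISRE core had a median of 3.50 TPM and 11 were expressed. The 16 genes without one had a median of 8.18 TPM and 12 were expressed. The 11 genes with no entry in the promoter table had a median of 2.86 TPM, and 8 were expressed. Ranges of all 3 sets overlapped over nearly their whole width, from 0.01 to 209 TPM in the first and from 0.045 to 107 TPM in the second. The 4 GTPases each held an ISRE core, as did Isg15, Ifit1 and Ifit3, while Lgals3bp, Sp100, Samhd1 and Ifi35 held none. GAS matches were in Bst2, Igtp, Oas1a, Adar, Ifit2, Samhd1, Isg20 and Ifi35.

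**Figure D3:**
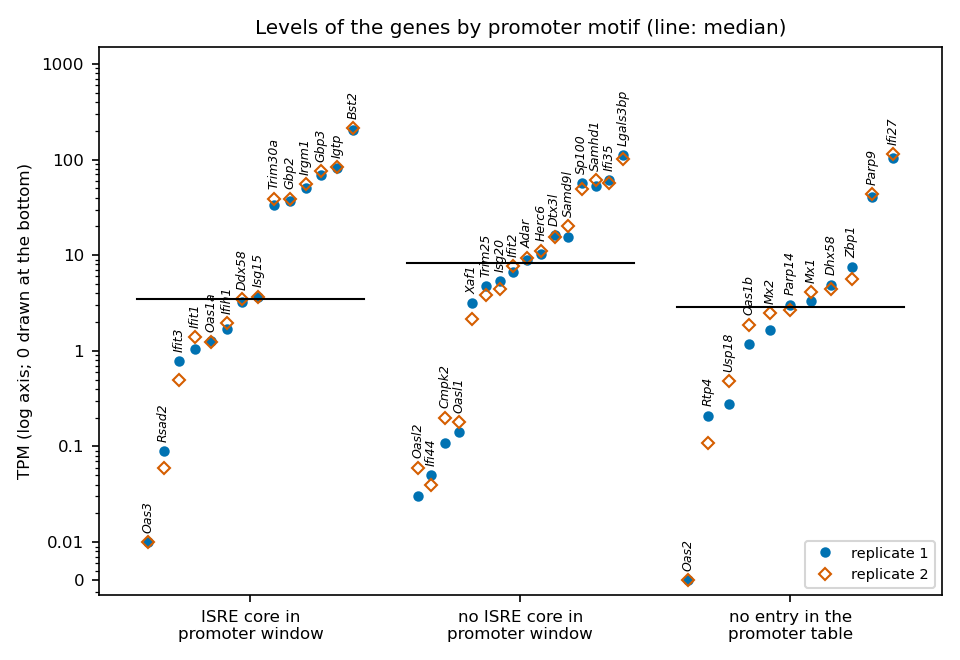
Levels in TPM on a log axis of the 41 genes by whether the RefSeq promoter window held the ISRE core, with filled circles for replicate 1, open diamonds for replicate 2 and a line at the median of each set. Each set runs from below 0.1 TPM to above 100 TPM.

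The genes that make and transmit the interferon signal were uneven. None of 21 interferon genes reached 1 TPM, and 18 had 0 counts in both libraries, among them Ifnb1, whose limit of 3 counts is 0.272 and 0.283 TPM. Ifng had 0 and 4 counts, Ifne 0 and 1, and Ifnk 1 and 0. Receptor genes were expressed in 5 of 6 cases. Ifnar1 was at 29.81 and 26.73 TPM, Ifnar2 at 25.42 and 24.35 TPM, Ifngr1 at 27.88 and 28.21 TPM and Ifngr2 at 22.95 and 24.37 TPM. Both chains of the type I receptor thus stood at similar levels, as did both chains of the interferon gamma receptor. Ifnlr1, the specific chain of the type III receptor, had 2 and 1 counts.

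All 7 transducers were expressed, and the highest of them is not reported here by name. Stat2 was at 1.82 and 1.73 TPM and Irf9, which pairs with it, at 7.38 and 8.39 TPM, with no overlap. Jak1 was at 26.00 and 25.42 TPM and Tyk2 at 25.74 and 26.02 TPM, with overlapping ranges. Irf1, an interferon-inducible factor that binds ISRE-like sites, was at 18.16 and 15.13 TPM.

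The 4 further interferon regulatory factors listed were all expressed. Irf5 led with 121.80 and 123.06 TPM, and Irf7, which amplifies type I interferon production, was lowest with 8.39 and 8.22 TPM. Of 13 sensors and adaptors upstream of the ligands, 10 were expressed. Cgas, the cytosolic DNA sensor, had 0 counts in both libraries, while its partner adaptor Sting1 was at 40.82 and 35.01 TPM. Tlr7, an RNA receptor of endosomes, was at 21.44 and 21.74 TPM, against 0.50 and 0.56 TPM for Tlr3. Unc93b1, which carries these receptors to endosomes, was the highest, at 57.33 and 51.43 TPM.

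Of 8 negative regulators, 7 were expressed. Ptpn6, the phosphatase SHP-1, was at 232.13 and 250.93 TPM, above Bst2 in each library. Socs1, which blocks the receptor kinases, was at 35.46 and 32.89 TPM, and Socs3 at 0.92 and 0.81 TPM. Usp18, the member that restrains the type I receptor, thus stood below both suppressors.

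**Figure D4:**
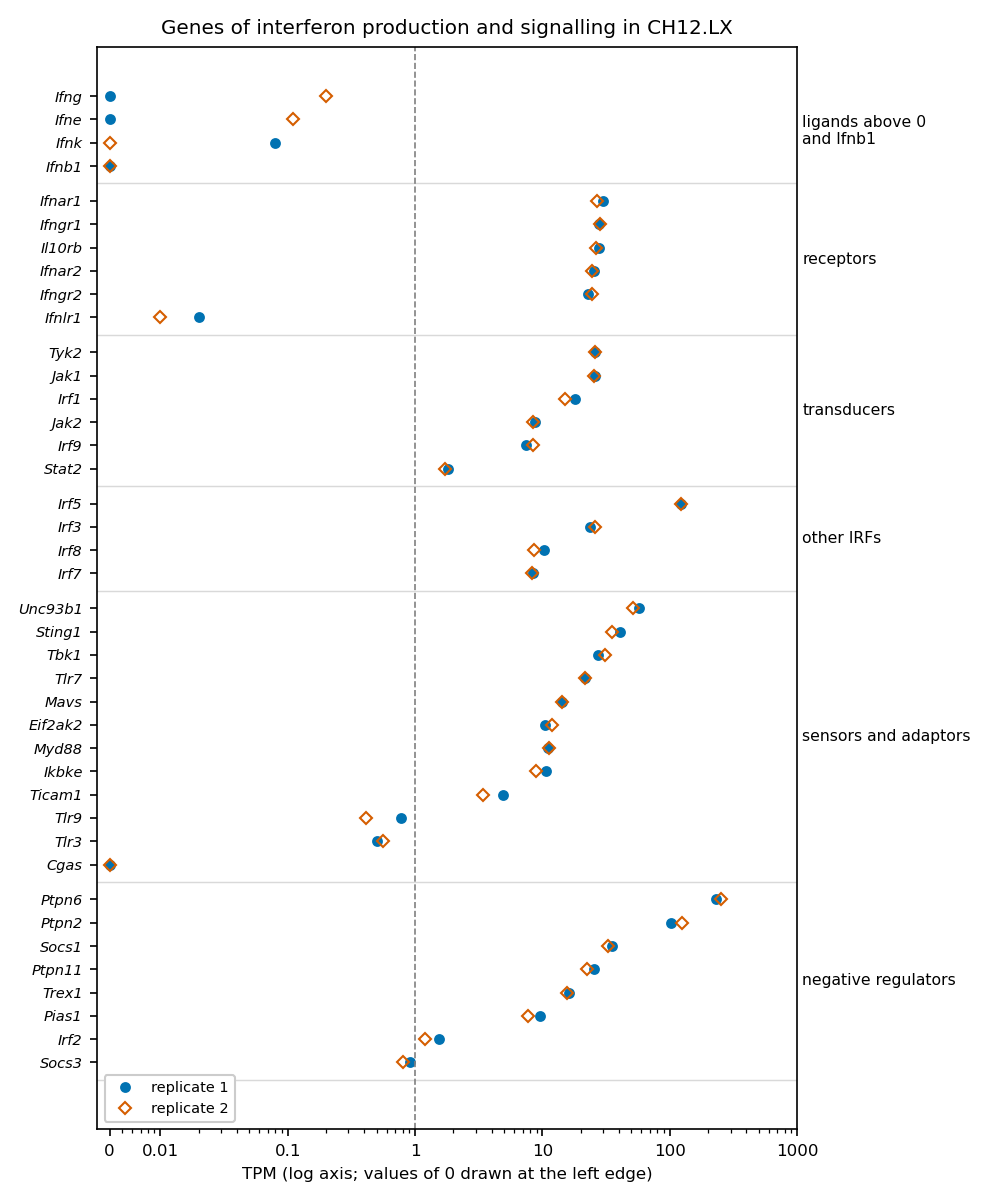
Levels in TPM on a log axis of genes of interferon production and signalling, with filled circles for replicate 1, open diamonds for replicate 2 and the dashed line at 1 TPM. Of the ligands only Ifnb1 and the 3 with any count are drawn, and not every transducer and sensor is shown. The receptor chains other than Ifnlr1 lie between 22.95 and 29.81 TPM, and Stat2 stands at 1.82 and 1.73 TPM.

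Interferon-stimulated genes outside the 41 were also mostly expressed. Of 50 further such genes, 40 were expressed, from 0 counts for Ifitm3 and Ifi44l to Psmb8, an immunoproteasome subunit, at 602.77 and 588.30 TPM. That gene was above Bst2 in both libraries, as were Ly6e at 304.05 and 272.56 TPM and Ifitm2 at 275.33 and 226.47 TPM. This list and the further family members, each gene counted once, had 61 of 89 measured genes expressed (68.5%). Cxcl10, a chemokine typical of an interferon response, had 26 and 24 counts, or 2.08 and 1.37 TPM.

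At transcript level, 28 of the 31 expressed genes were led by a protein-coding transcript. The exceptions were Mx1, Mx2 and Oas1b. Oas1b had 26.5% of its TPM outside protein-coding transcripts in replicate 1 and 100% in replicate 2. These shares include Oas1b-203, annotated as polymorphic pseudogene with 376 residues, at 0.15 and 0.99 TPM. The isoforms of Oas1b were thus not resolved at 35 and 38 counts. In Zbp1, 80.7% ± 2.86 of the TPM was on Zbp1-202, which codes for 187 residues, and Zbp1-201, which codes for 411 residues, was at 1.22 and 0.99 TPM. The full-length form of this sensor was thus the lesser one in both replicates.

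The replicates were compared on log2(TPM + 0.5), replicate 2 minus replicate 1, for genes with a mean of 20 or more counts, a filter that 31 of the 41 passed. None of the 31 was past 1.5-fold, beside 2.69% of the 11661 genes compared (0.858% higher and 1.84% lower in replicate 2). With 1 library on each side no p-value exists. Differences ranged from -0.44 for Xaf1 to 0.51 for Oas1b. The median was 0.08, with 19 genes higher and 12 lower in replicate 2. Over all genes compared the median was near 0 (-0.0022), and 49.3% were higher in replicate 2. When counts were scaled to the ERCC spike-ins, all 31 were higher in replicate 2, while the median of all genes itself moved to 0.29. Under that scaling 5 of the 31 were past 1.5-fold, namely Ifit1, Ifit2, Mx1, Mx2 and Samd9l, beside 5.57% of all genes compared. The median absolute difference was 0.14 for these genes and also 0.14 for all genes compared.

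**Figure D5:**
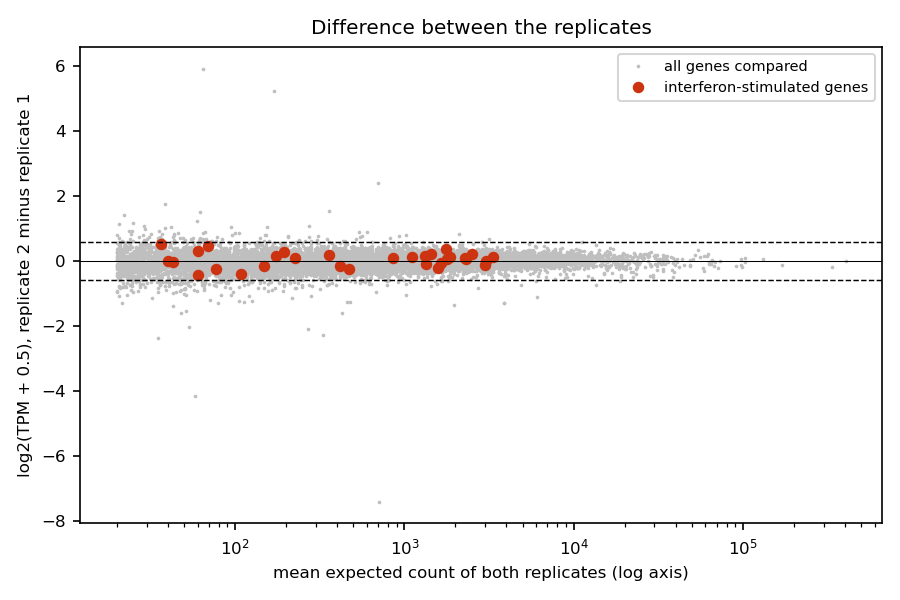
Difference between replicates in log2(TPM + 0.5) against the mean expected count on a log axis, with all 11661 genes compared in grey and the 31 interferon-stimulated genes in red. The dashed lines mark 1.5-fold, and all 31 lie between them.

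The label of the line was checked on markers. All 8 B-cell markers were expressed, with Cd79b, a chain of the B-cell receptor, at 528.98 and 485.26 TPM. None of 6 natural killer and none of 7 listed myeloid markers reached 1 TPM, with summed levels of 0.24 and 0.37 TPM and of 1.37 and 1.56 TPM. Other genes known from myeloid cells, chosen after their values were seen, were expressed: Cd36 at 424.82 and 473.04 TPM, Cd68 at 93.78 and 93.45 TPM and Adgre1 at 7.09 and 6.31 TPM. Cd300lf and Clec12a were also above 1 TPM, and the part of any such cells in the levels above was not tested. Of 7 T-cell markers only Cd3g reached 1 TPM, and the list summed to 1.81 and 1.51 TPM. For plasmacytoid dendritic cells, the strongest makers of type I interferon, 3 of 7 markers were expressed and the sum was 73.29 and 69.34 TPM. Most of that was Tcf4, at 62.58 and 58.35 TPM, while Siglech, which defines these cells, was at 0.27 and 0.23 TPM. In bulk RNA, fewer cells with a transcript and less of it per cell cannot be told apart, and this holds for every level above.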

How the data were processed

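RNA of 2 CH12.LX biosamples was measured by RNA sequencing. The labels name total RNA sequencing and also polyadenylated RNA, and which holds was not settled here. Per the file headers and accompanying notes, the reference was mm10 with the spike-ins added and the GENCODE M4 gene models. The aligner was not given in the sources used here, nor the counter or the strand setting. The authors deposited expected counts, which divide shared reads between features without normalization. The deposited TPM, from the authors, gives abundance per effective length with an equal total per library, and the deposited FPKM served for 1 alternative. The authors' deposited isoform percent gives the shares of Mx1-205 and Zbp1-202, and other transcript shares were computed from TPM. Deposited posterior means served as alternatives.

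Symbols, transcript types and coordinates came from GENCODE M21 on GRCm38 and promoter sequences from RefSeq. All 41 symbols matched; Gbp5, Gbp6, Gbp10 and Mnda of the wider lists were not analysed here. Some genes of the pathway lists enter the counts and are not reported here by name. The members and lists were chosen with earlier results of these data known. All 41 members are named. Of each other list only some genes are named, and the highest and lowest are not always among them. The highest transducer and the highest B-cell marker, for example, are not named. Cxcl10, Ly6e and Ifitm2 were chosen after their values were seen. Adar-202, Mx1-205 and the like are GENCODE transcript names. Levels, ratios and medians were computed with pandas 2.3.3 in Python 3.11.15, Poisson intervals with scipy 1.17.1, TMM factors for 1 alternative with edgeR 4.0.16 in R 4.3.3. The 1.5-fold count was tested on simulated data. The labels do not say whether the 2 biosamples were separate cultures, so the SD may be technical. Alternatives were other thresholds, pseudocounts, filters, units, scalings, motifs and single replicates.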

Additional observations from a re-analysis of the deposited data

How the results depend on the processing

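The count of 31 expressed genes was 26 at 2 TPM, 30 at 1 FPKM, and 31 at 0.5 TPM, with posterior means, with 20 or more counts in both replicates and with either replicate left out. The median of 4.29 TPM was 9.155 TPM over the members with 20 or more counts, since the lowest genes then drop out, and from 4.14 to 4.72 TPM with 1 replicate left out. The count past 1.5-fold between replicates was 1 with a pseudocount of 0.1 TPM, namely Oas1b, and 5 with scaling to the ERCC spike-ins, under which the median difference was 0.367 and that of all genes 0.29; it was 0 with the other settings tried. The p150 share of Adar was 54.3% by expected counts and from 48.5% to 51.4% with 1 replicate left out. Posterior means moved 10 of 41 single levels by more than the replicate SD: Ifih1, Ddx58, Dhx58 and Igtp among expressed genes, and Oas2 from 0 to 0.125 TPM, Oas3 from 0.01 to 0.14, Oasl2 from 0.045 to 0.525, Ifi44 from 0.045 to 0.49, Rsad2 from 0.075 to 0.325 and Oasl1 from 0.16 to 0.58. The 5 genes below 0.1 TPM then became 0, and levels from a few counts depend on the estimator. Counts of expressed pathway genes moved by at most 1 in each class. The ISRE core was in 11 of 30 genes (36.7%) with a flanking C required, against 0.944% of all genes of the promoter table. With a spacing of 1 base also allowed it was in 19 of 30 (63.3%), against 7.27% of all genes. No paired analysis was possible because both replicates belong to 1 group.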

Other observations

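Outside the families of the 41 genes, the IFI200 group of interferon-inducible DNA sensors had 5 of 8 measured genes above the level called expressed. Mndal was at 83.68 and 119.20 TPM and Aim2, which starts the inflammasome on binding cytosolic DNA, at 89.70 and 99.34 TPM, with overlapping ranges. Ifi202b had 0 counts. Aim2 was thus high in a line in which the DNA sensor gene Cgas had 0 counts, and no relation between them was tested.

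The stretch of chromosome 4 from Ifnb1 to Cdkn2b (88522025 to 89311039, GRCm38) holds most type I interferon genes. It has 36 protein-coding genes, and 33 had 0 counts in both libraries, as did 7332 of all 21474 protein-coding genes. Mtap, Cdkn2a and Cdkn2b, which are not interferon genes, were among the 33. Whether the genes at 0 are lost or silent in this line was not tested. Klhl9, a ubiquitin ligase adaptor inside that stretch, was at 39.64 and 42.12 TPM, from 3274 and 3338 counts, and was chosen after its value was seen.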
